A study of Homo sapiens with 55 samples.

Results

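U2AF1 S34F was compared with U2AF1 WT in K562 cells, an established human leukemia line, that carried a control guide. The 6 libraries of this comparison, of 55 samples in the series, were chosen by their labels: 3 from cells that overexpressed U2AF1 S34F with sgRenilla and 3 from cells that overexpressed U2AF1 WT with sgRenilla. The control guide sgRenilla targets a luciferase gene that human cells lack. The same labels named 6 libraries of the same 2 constructs with sgGPATCH8, a guide against the G-patch gene GPATCH8, and these 12 libraries form the U2AF1 panel. K562 cells that overexpressed SRSF2 P95H or SRSF2 WT with sgRenilla, 3 libraries each, were used only to set another splicing factor mutation beside the results. In every group the overexpressed protein was made in cells that also have their own U2AF1, and the labels give neither the promoter nor the level of the overexpressed gene. The labels do not say whether replicates were separate cultures, so p-values measure only the spread between these libraries.

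U2AF1 is the small subunit of U2AF, the factor that marks the 3' splice site for the spliceosome. Its partner U2AF2 binds the run of pyrimidines in front of the site, and U2AF1 contacts the AG at the end of the intron. Mutations of U2AF1 recur in myelodysplastic syndromes and acute myeloid leukemia, and S34F changes a serine in one of its zinc fingers. Published work on S34F describes a choice between 3' splice sites that depends on the base just before this AG, at position −3 counted back from the first base of the exon. There, acceptors with T were used less and acceptors with C or A more.

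The deposited values are fractions, 0 to 1, of the isoform listed first among the isoforms of a splicing event. They are given here in percent as usage, and differences as percentage points, S34F minus WT. For a skipped exon, usage is therefore the share that includes it. For alternative 3' splice sites it is the share of the upstream site, for mutually exclusive exons that of the upstream exon, and for retained introns the spliced share. The 12 libraries had a value for 73% to 74% of events, and the reads behind a value are unknown. Fractions do not show gene levels, so the K562 identity could be seen only as splicing of erythroid and K562 genes. All 13 genes of that list with an event had a value in the 6 libraries, as did PTPRC and LYZ, markers of other blood cells. Replicate 1 lay apart from replicates 2 and 3 on the first principal component, which held 22.2% of the variance, while the second (13.5%) separated S34F from WT. Pairs with the same number were therefore compared, and values of each pair are given throughout.

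Few single events passed the test, and they were large. Of 43468 events tested, limma with the replicate block called 15 (0.0345%) at a Benjamini-Hochberg adjusted p under 0.05 and a difference of at least 5 points. Usage was higher with S34F in 10 and lower in 5, in 10 genes, and 6 of the 15 events lay in CNOT2. All 15 went the same way in each of the 3 pairs. An unadjusted p under 0.05 was found for 5815 events, or 13.4%. The 15 calls depend on every library: leaving out any 1 of the 6 left 0 calls, with a lowest adjusted p of 0.064 to 0.2, and so did leaving out replicate 1 in every group (lowest adjusted p 0.35). Without the replicate block, limma called 1 event. With no limit on group means 150 events passed, and in a fit of the 6 sgRenilla libraries alone none did.

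CTNNB1, which encodes beta-catenin of Wnt signalling and cell adhesion, had the largest change among the called 3' splice sites. Its upstream 3' splice site was used in 85%, 81% and 84% of transcripts in the S34F libraries, against 49%, 50% and 49% in the WT libraries. The groups lay far apart and the WT libraries hardly differed. The rise of 34 points passed (limma adjusted p 0.023, log2 ratio 2.30 ± 0.19 SE). The acceptors compete 159 nt apart (chromosome 3, first exon bases 41281151 and 41281310 in hg19), both in untranslated exon sequence (UTR) in GENCODE 29. They are shown because neither has T at −3. Capitals mark positions −3 to −1 here and below, and coordinates beside sequences are those of GENCODE 29 on GRCh38.
CTNNB1 upstream acceptor (chr3:41239635-41239664, plus strand): tagcagcctttctctctttataCAGctgta
CTNNB1 downstream acceptor (chr3:41239794-41239823, plus strand): tttgttctggtcctttttggtcGAGgagta
The upstream acceptor ends in CAG and the downstream one in GAG.

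CNOT2 encodes a subunit of the CCR4-NOT complex, which shortens poly(A) tails. A CNOT2 exon with its acceptor at 70687851 on chromosome 12 (hg19) was included in 85%, 85% and 76% of transcripts in the S34F libraries, against 23%, 42% and 35% in the WT libraries. This was the largest difference among the called events, 48.7 points (log2 ratio 3.17 ± 0.33 SE, limma adjusted p 0.032). The other 5 called events of CNOT2 involved the same acceptor, so the 6 are not independent. Against a site 166 nt downstream that acceptor had 23%, 31% and 31% usage in the S34F libraries, against 6%, 10% and 10% in the WT libraries. When set against an exon further upstream in the gene, with an acceptor at 70679180, that upstream exon was used in 23%, 10% and 7% of transcripts in the S34F libraries and 71%, 56% and 44% in the WT libraries. GENCODE 29 places the acceptor at 70687851 in coding sequence in some transcripts and in a UTR in others.

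The other called exons were in genes of varied function. CNEP1R1, the regulatory subunit of a nuclear envelope phosphatase, included an exon in 80%, 78% and 87% of transcripts in the S34F libraries, against 51%, 45% and 56% in the WT libraries (31.0 points, limma adjusted p 0.031). RPGRIP1L, a protein of the ciliary base, rose by 29.3 points (34%, 54% and 52% in the S34F libraries, against 9%, 22% and 21% in the WT libraries; limma adjusted p 0.037). In TRMT1L, a tRNA methyltransferase-like gene, an exon was included in 10%, 17% and 13% in the S34F libraries, against 2%, 4% and 3% in the WT libraries (limma adjusted p 0.026). In each of these 3 genes the lowest S34F library lay above the highest WT library. Inclusion fell in AP1S2, a clathrin adaptor subunit, to 5%, 1% and 2% in the S34F libraries, against 24%, 17% and 16% in the WT libraries (limma adjusted p 0.023). SNX14, a sorting nexin, fell to 5%, 6% and 5% in the S34F libraries, against 16%, 21% and 21% in the WT libraries (limma adjusted p 0.037).

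Besides CTNNB1 and CNOT2, 3 genes had a called alternative 3' splice site. In ALPK1, a kinase that senses a bacterial sugar, the upstream site was used in 11%, 9% and 9% of transcripts in the S34F libraries, against 2%, 2% and 1% in the WT libraries (8.0 points, limma adjusted p 0.044). In NSMCE2, a SUMO ligase of the SMC5/6 complex, it fell to 14%, 9% and 9% in the S34F libraries, against 34%, 26% and 21% in the WT libraries (limma adjusted p 0.048). The antisense RNA NUTM2A-AS1 fell to 82%, 57% and 56% in the S34F libraries, against 98%, 96% and 95% in the WT libraries (limma adjusted p 0.023). Here S34F replicate 1 was well above the other S34F libraries but still below every WT library. NUTM2A-AS1 belongs to a duplicated gene family, so its values are uncertain where reads match several copies. Fitted in percentage points without a log, none of the 3 passed (limma adjusted p 0.11 for ALPK1, 0.064 for NSMCE2 and 0.069 for NUTM2A-AS1). In ALPK1 the WT values were near 0%, and its change with sgGPATCH8, 7.7 points, did not pass (limma adjusted p 0.063).

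**Figure D1:**
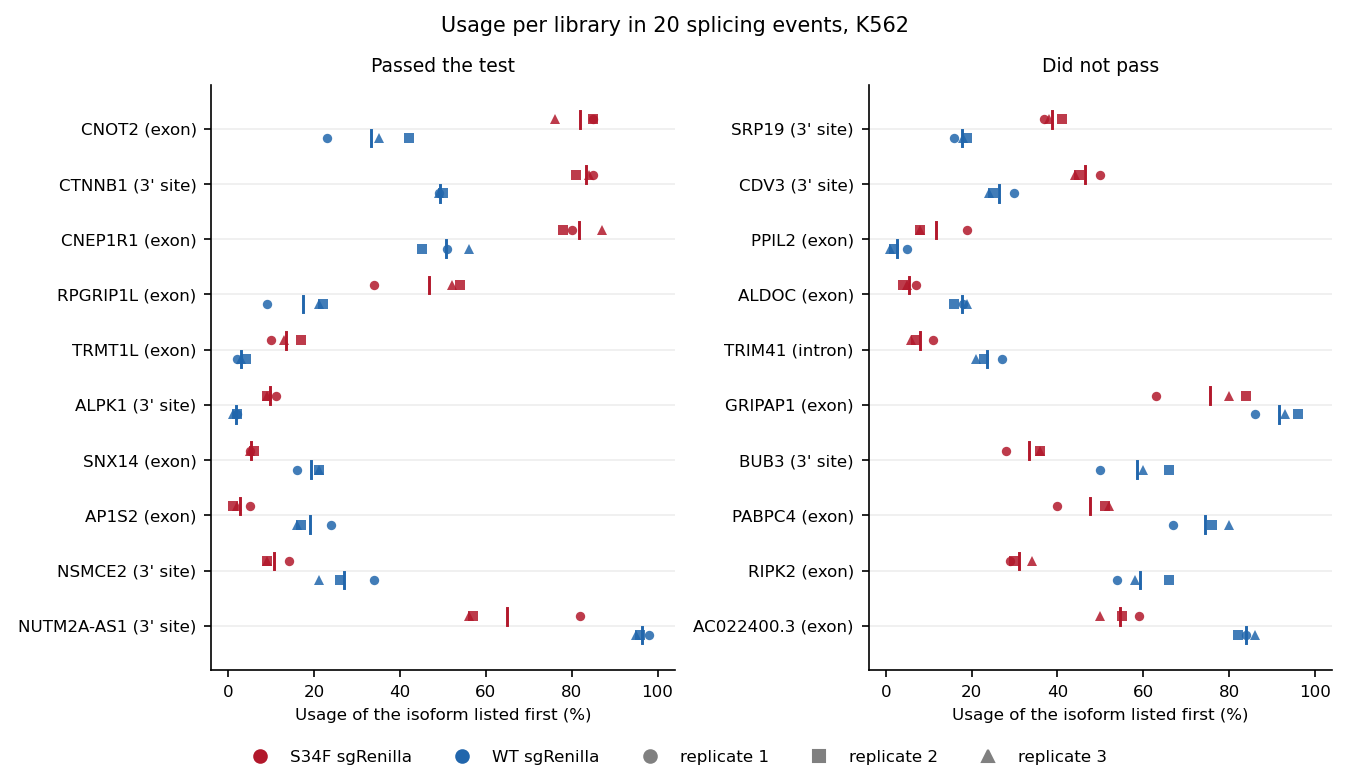
Usage of the isoform listed first (horizontal axis, percent) in 20 splicing events, 1 point per sgRenilla library, with S34F in red above WT in blue, symbols for the replicate number and a bar at each group mean. The left panel holds the 10 events that passed the limma test, 1 a gene, and the right panel the 10 with the next lowest p, which did not pass. In none of the 20 do the 3 S34F and 3 WT libraries overlap, as their choice by p would favour.

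A further 10 events, 1 a gene, had the next lowest p and at least 5 points of difference, but did not pass (limma adjusted p 0.051 to 0.054). In BUB3, a spindle checkpoint gene, upstream site usage was 28%, 36% and 36% in the S34F libraries and 50%, 66% and 60% in the WT libraries. In PABPC4, a cytoplasmic poly(A)-binding protein, exon inclusion was 40%, 51% and 52% in the S34F libraries and 67%, 76% and 80% in the WT libraries. RIPK2, a kinase of NOD receptor signalling, had 29%, 30% and 34% inclusion in the S34F libraries and 54%, 66% and 58% in the WT libraries. SRP19, a protein of the signal recognition particle, used its upstream site in 37%, 41% and 38% of transcripts in the S34F libraries and 16%, 19% and 18% in the WT libraries. TRIM41, a ubiquitin ligase, spliced an intron of 582 nt in 11%, 7% and 6% of transcripts in the S34F libraries and 27%, 23% and 21% in the WT libraries. The others were exons of GRIPAP1 (−16.0 points), AC022400.3 (−29.3), PPIL2 (9.0) and ALDOC (−12.3) and an upstream site of CDV3 (20). Of all 20 events named so far by this rule, 9 were higher and 11 lower with S34F. In 20 of 20 the groups did not overlap, as their choice by p would favour. The share of all tested events without overlap is not given here, so this count is not a result about the 20.

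The sgGPATCH8 libraries gave the same contrast in 6 libraries whose values do not enter the sgRenilla difference. They did enter the fit that gave the sgRenilla p-values. There limma called 378 events (0.87%), 196 higher and 182 lower, in 301 genes, and 10 without the replicate block. Both contrasts came from 1 fit with a shared estimate of the spread, so a small spread favours a call in both. Of the 15 events called with sgRenilla, 15 had the same sign with sgGPATCH8 and 12 were called there too, which is 80% of the 15 and 3.17% of the 378. CTNNB1 had 88%, 86% and 86% upstream usage in the S34F sgGPATCH8 libraries, against 50%, 52% and 53% in the WT sgGPATCH8 libraries (35 points, limma adjusted p 0.016). Among the 20 events the sign was the same in 20, and 14 were called with sgGPATCH8. The same-sign share over all tested events is not given here, so these sign counts have no background beside them. Their changes had a median size of 20.5 points in the sgRenilla libraries and 17.7 in the sgGPATCH8 libraries. CNEP1R1 differed most in size, with 31.0 points with sgRenilla and 6.3 with sgGPATCH8, where inclusion was 55%, 52% and 71% in the S34F libraries and 54%, 48% and 57% in the WT libraries. The interaction of S34F with sgGPATCH8 tested this kind of difference itself. Limma called 0 of 43468 interactions (0.0%), with 2960 at an unadjusted p under 0.05 and a lowest adjusted p of 0.49 (0.67 among the 20 events). A count of 378 beside 15 is therefore not shown to be a stronger response. In SRSF2 P95H cells the same 20 events differed from SRSF2 WT by a median of 2.3 points in size. CNOT2 (−28.3 points) and SNX14 (12) moved there in the direction opposite to S34F.

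**Figure D2:**
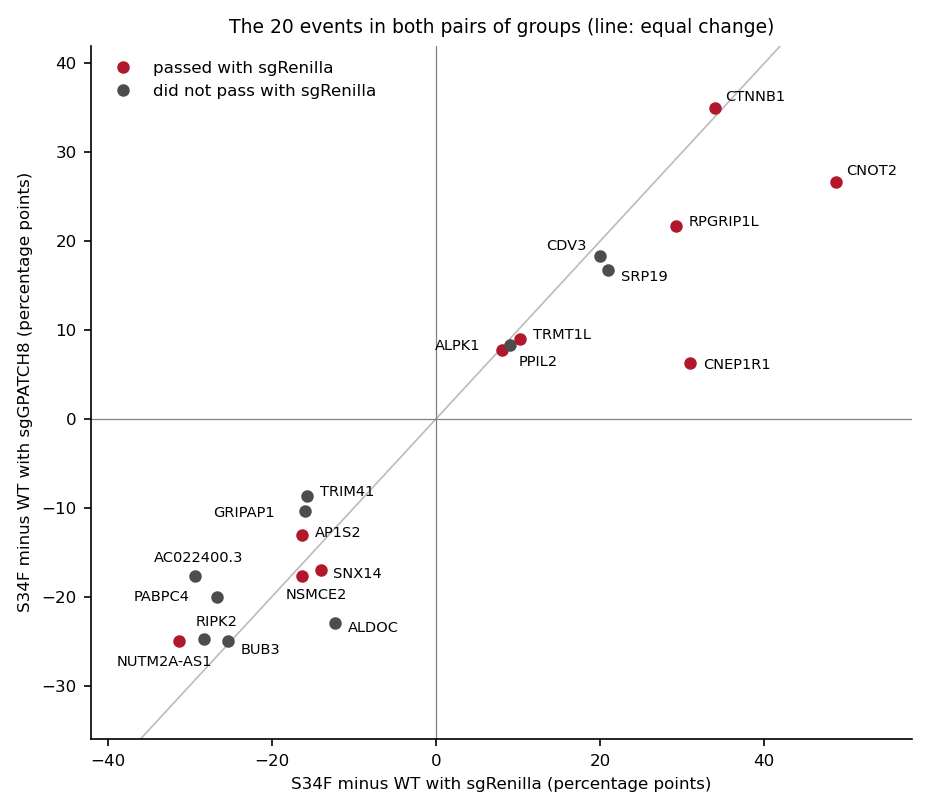
S34F minus WT in percentage points for the 20 events, with sgRenilla on the horizontal and sgGPATCH8 on the vertical axis, 1 point per event from 3 libraries a group; red events passed the limma test with sgRenilla, grey ones did not. All 20 points share their sign, CTNNB1 lies on the line of equal change (34 and 35), and CNEP1R1 (31.0 and 6.3) and CNOT2 (48.7 and 26.7) lie below it.

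A wider rule asked for at least 10 points in the mean and the same direction in 3 of 3 pairs, with no p-value. It took 1343 events with higher usage (3.09% of those tested) and 2050 with lower usage (4.72%), 3393 together (7.81%). Their median changes were 14.3 and −14.3 points with sgRenilla, where they were chosen, and 6.0 and −7.0 points with sgGPATCH8. There the mean change had the same sign in 70.7% of the higher and 75.9% of the lower events. All 3 sgGPATCH8 pairs went that way in 39.4% of the higher and 43.9% of the lower events. The matching shares over all tested events are not given here. In the SRSF2 P95H libraries the medians of these events were −0.3 and 0.7 points. By type, the rule took 636 skipped exons with higher inclusion (3.21% of 19814) and 1064 with lower inclusion (5.37%). It took 351 alternative 3' splice sites with more upstream usage (3.43% of 10241) and 486 with less (4.75%). Among 3647 retained introns, 58 were spliced more (1.59%) and 195 less (5.35%), beside 3.09% and 4.72% of all events. Their splicing differed by a mean of −1.71 points, with pairs of −0.55, −1.27 and −3.31. Alternative 5' splice sites changed by a mean of 0.03 points.

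Acceptor sequences could be read from annotated transcripts for 5225 tested skipped exons (26.4%) and for the upstream site of 3297 alternative 3' splice sites (32.2%). Exons with and without a read acceptor had the same median change, −0.33 points, and means of −0.57 and −0.69 points. Bases can be read only where an annotated exon covers the site, so the exons read are not a random part of all exons. Grouped by the base at −3, exons with T were included less with S34F, exons with A somewhat more, and exons with C, the most frequent base, were almost level. The 1218 exons with T at −3 had a mean change of −3.37 points, and −3.40, −2.94 and −3.78 in the 3 pairs. The 467 exons with A had 1.48 (2.18, 1.47 and 0.80), the 3450 with C 0.18 (0.47, 0.50 and −0.42), and the 90 with G −2.16 (−2.03, −3.01 and −1.43). Medians were −2.67 points for T, 1.0 for A, 0.33 for C and −2.0 for G.

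Taken library by library, the T exons lay at a median of −1.92, −1.0 and −1.0 points from their own 6-library mean in the S34F libraries, against 0.67, 1.17 and 2.17 in the WT libraries. The groups did not overlap, which gives the smallest p that 3 against 3 libraries allow (two-sided exact permutation p 0.1, Benjamini-Hochberg adjusted 0.27 over 8 classes of base and event type). The A exons lay at −0.17, 0.83 and 1.17 in the S34F libraries and −1.17, −0.67 and 0.33 in the WT libraries, which overlap (exact permutation p 0.2). This permutation test does not use the pairing, so shifts between replicate numbers count as spread. By pair, the median change of the A exons was 1.0 points in each of the 3. By the 10-point rule 131 T exons were lower (10.8%) and 14 higher (1.15%), beside 5.37% and 3.21% of all skipped exons. Of A exons 39 were higher (8.35%) and 14 lower (3.0%), and of C exons 111 were higher (3.22%) and 106 lower (3.07%). The sgGPATCH8 libraries gave the same order, with means of −2.32 points for T (pairs −2.42, −2.01 and −2.51), 2.26 for A, 1.01 for C and 0.17 for G (pairs 0.13, 0.23 and 0.13), so the negative mean of G exons with sgRenilla was not seen there. With SRSF2 P95H the means were 0.19 for T, −0.36 for A and 0.58 for C. Exons share genes and libraries and are not replicates, so the 3 pairs carry the error.

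**Figure D3:**
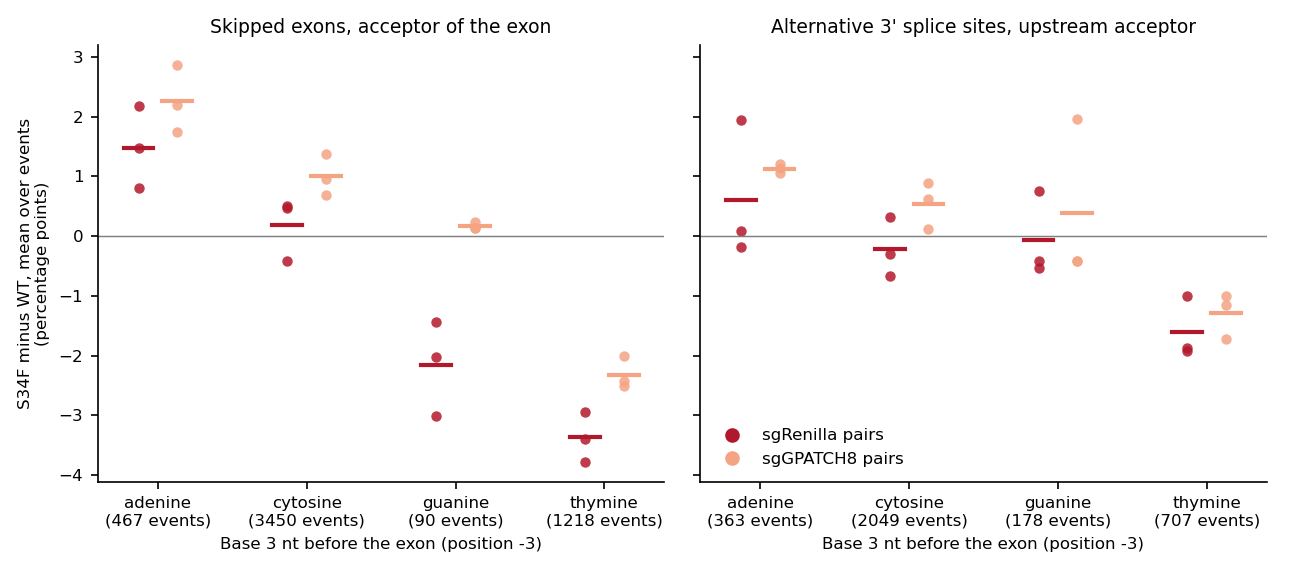
Mean S34F minus WT change in percentage points (vertical axis) of events grouped by the base at position −3 (horizontal axis), for the acceptor of skipped exons on the left and the upstream acceptor of alternative 3' splice sites on the right. Each point is 1 replicate pair and each bar the mean of the 3 pairs, sgRenilla in red and sgGPATCH8 in orange; the T exons lie between −3.78 and −2.01 points in all 6 pairs.

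The difference between bases was widest at position −3. For 4870 skipped exons with bases read from −12 to +5, the means of the 4 bases spanned 5.06 points at −3. The next widest span was 1.01 points at −4, and at each of the other 13 positions where bases vary it was 0.23 to 0.71 points. At −4 exons with A had a mean of 0.04 points and those with C −0.97.

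**Figure D4:**
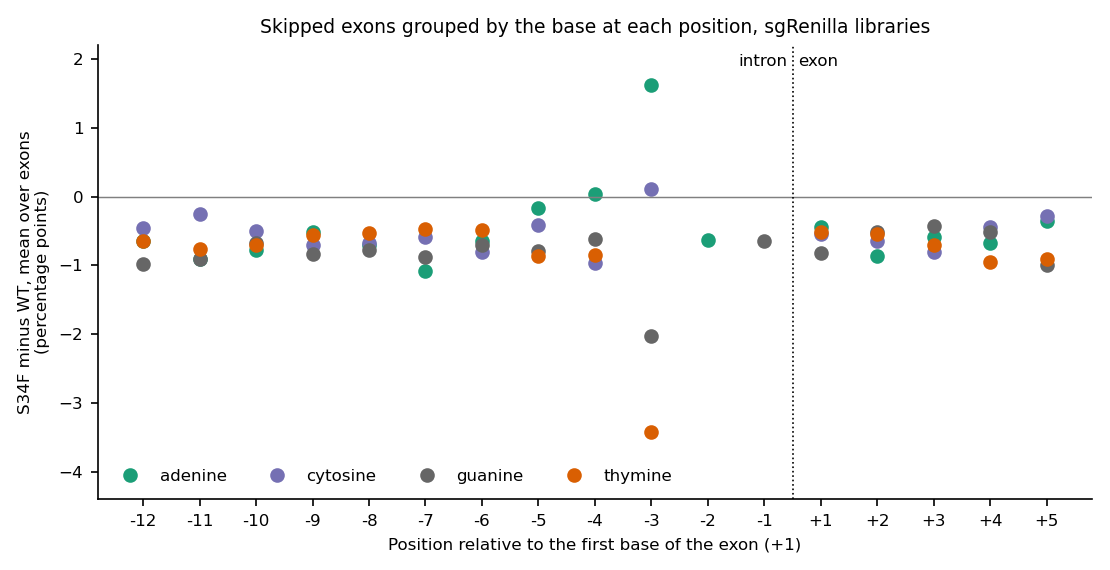
Mean S34F minus WT change in percentage points (vertical axis) of 4870 skipped exons grouped by the base at each position around the acceptor (horizontal axis, +1 is the first exon base), sgRenilla libraries, 1 point per base. At −3 the means run from 1.63 points for adenine to −3.43 for thymine; positions −2 and −1 have 1 point each because almost all acceptors end in AG.

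The size of the change also followed how often an exon was included. Inclusion was taken from the WT sgGPATCH8 libraries, which the sgRenilla difference does not use. T exons included in under 20% of transcripts changed by a mean of −1.58 points (n = 292 exons), those at 20% to 50% by −4.30 (n = 183), those at 50% to 80% by −5.47 (n = 243) and those at 80% or more by −3.06 (n = 500). In each of these 4 ranges all 3 pairs were negative. A exons changed most at 20% to 50% (3.75 points, pairs 4.12, 3.40 and 3.73, n = 93) and by −0.01 at 80% or more (pairs 1.39, −0.54 and −0.87, n = 118). Usage is bounded at 0% and 100%.

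**Figure D5:**
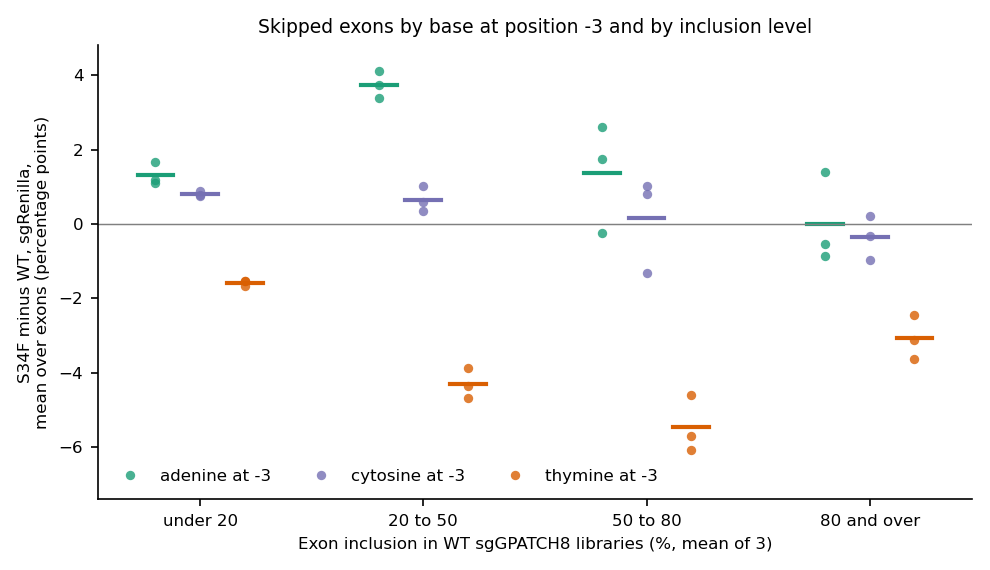
Mean S34F minus WT change in the sgRenilla libraries (vertical axis, percentage points) of skipped exons by inclusion in the WT sgGPATCH8 libraries (horizontal axis, percent) and by base at −3; points are the 3 replicate pairs and bars their mean. Thymine exons are below 0 in every range, with the lowest mean, −5.47 points, at 50% to 80%.

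The exons below were picked after their values were seen, as those with the lowest p among exons that the 10-point rule took in each class, and are shown so that the acceptors can be compared. All have T at −3 and were included less with S34F, and none passed the test in the sgRenilla libraries.
PABPC4 exon (chr1:39563918-39563947, minus strand): atgtgcatttgctggtctgttgTAGggtct
ATG16L1 exon (chr2:233273696-233273725, plus strand): aaacctatcctcccctcctcttTAGtaagc
ZNF195 exon (chr11:3361885-3361914, minus strand): gctaatttttttgtattttctgTAGagatg
RSRP1 exon (chr1:25244494-25244523, minus strand): tatctgctctatttctgtcttaTAGaaatc
STRADA exon (chr17:63726691-63726720, minus strand): ttctctttggggttttcctcttTAGcggtg
ATG16L1, which directs lipid attachment in autophagy, had 20%, 22% and 21% inclusion in the S34F libraries and 36%, 45% and 37% in the WT libraries (−18.3 points, limma adjusted p 0.056). With sgGPATCH8 its change was −3.0 points (limma adjusted p 0.56). ZNF195, a zinc finger gene, had 22%, 18% and 23% in the S34F libraries and 40%, 31% and 41% in the WT libraries (limma adjusted p 0.062), and −4.0 points with sgGPATCH8 (limma adjusted p 0.44). RSRP1 had 23%, 29% and 30% in the S34F libraries and 50%, 51% and 52% in the WT libraries (limma adjusted p 0.066), and −22.7 points with sgGPATCH8 (limma adjusted p 0.041). STRADA, a pseudokinase that activates the kinase LKB1, had 42%, 66% and 58% in the S34F libraries and 69%, 85% and 77% in the WT libraries (limma adjusted p 0.066). The groups did not overlap in ATG16L1, ZNF195, RSRP1 or STRADA, as their choice by p would favour.

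The next exons have A at −3 and were included more with S34F.
ATR exon (chr3:142450598-142450627, minus strand): tcttccatatccaccttttcctAAGatggc
MFSD8 exon (chr4:127938834-127938863, minus strand): caatatttgtgtttttctttttAAGagaac
ITGB3BP exon (chr1:63447610-63447639, minus strand): tacaaactcctgctcatcctttAAGgtcag
SUN2 exon (chr22:38754702-38754731, minus strand): tgccttgtttctgccctgggcaAAGgtgtc
ATR, a kinase that responds to stalled replication and DNA damage, had 34%, 44% and 48% inclusion in the S34F libraries and 17%, 18% and 24% in the WT libraries (22.3 points, limma adjusted p 0.056). Its change with sgGPATCH8 was 24.0 points (limma adjusted p 0.029). The lysosomal membrane gene MFSD8 had 91%, 89% and 90% in the S34F libraries and 69%, 69% and 55% in the WT libraries (limma adjusted p 0.066). ITGB3BP, a centromere protein gene, had 23%, 28% and 25% in the S34F libraries and 10%, 13% and 17% in the WT libraries (limma adjusted p 0.077). SUN2, of the nuclear envelope, had 51%, 42% and 47% in the S34F libraries and 31%, 27% and 28% in the WT libraries (limma adjusted p 0.082). In none of these genes did the groups overlap, as their choice by p would favour. BCAS3, a further A exon that the 10-point rule took, had 77%, 44% and 42% in the S34F libraries. The WT libraries had 46%, 28% and 24%, so its groups overlapped (limma adjusted p 0.092). In ATR, MFSD8 and ITGB3BP the acceptor of the next exon, used when the exon is skipped, has T at −3.

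ALDOC, the brain form of aldolase, had A and T acceptors 3 nt apart at the start of 1 exon, and both exon forms were lower with S34F.
ALDOC acceptor with A (chr17:28576013-28576042, minus strand): ttcttccaaccttttcctctagAAGctgag
ALDOC acceptor with T (chr17:28576016-28576045, minus strand): ctgttcttccaaccttttcctcTAGaagct
The form that starts at the A acceptor was included in 7%, 4% and 5% of transcripts in the S34F libraries and 18%, 16% and 19% in the WT libraries (limma adjusted p 0.051). The form with the T acceptor had 16%, 13% and 12% in the S34F libraries and 37%, 32% and 32% in the WT libraries (limma adjusted p 0.066). Among the skipped exons named through p or a gene list whose acceptor was read, 7 of 7 with T were lower, and 4 of 5 with A higher, ALDOC being the other.

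Where 2 acceptors compete directly, the difference lay with the bases of both. In 400 alternative 3' splice sites with T upstream and C or A downstream, upstream usage changed by a mean of −1.82 points (pairs −2.58, −1.17 and −1.70). In 170 with C or A upstream and T downstream it changed by 1.36 points (1.66, 1.68 and 0.75). The 1089 events with C at both sites had −0.17 (−0.30, 0.36 and −0.56), and the 86 with T at both −0.25 (0.67, 0.40 and −1.83). The sgGPATCH8 means were −1.59, 2.03, 0.75 and −0.91 for these 4 classes, and those of SRSF2 P95H −0.43, −0.86, −0.76 and 0.37. Without T at either site, the 187 events with A upstream and C downstream had 1.41 points (2.30, 1.45 and 0.47). The 219 with C upstream and A downstream had −0.52 (−0.40, 0.77 and −1.93). Whether T at the downstream site adds to a rise was not tested. By library, upstream T sites lay at −0.33, −0.50 and −0.33 points in the S34F libraries and 0.67, 0.50 and 0.83 in the WT libraries (707 events, exact permutation p 0.1, adjusted 0.27). For skipped exons, those with A at their own acceptor and T at the next had the largest positive mean of the 7 pairs of bases computed, 3.54 points (pairs 2.81, 4.30 and 3.52, n = 67), with 12 higher by the 10-point rule (17.9%) and 1 lower (1.49%). Exons with T at both acceptors had −4.53 points (pairs −4.27, −4.31 and −5.02, n = 127), below the −3.34 points of the 356 with T at their own acceptor and C or A at the next. Exons with C or A at their own acceptor and T at the next had 0.81 points (n = 351).

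Neighbouring acceptors in PICALM and PHKB show the pattern within 1 intron. In PICALM, a clathrin assembly gene, the sites lie 15 nt apart, and in PHKB, a subunit of phosphorylase kinase, 17 nt.
PICALM upstream acceptor (chr11:85981999-85982028, minus strand): tatttcgtctgtttgtaactttAAGgcttt
PICALM downstream acceptor (chr11:85981984-85982013, minus strand): taactttaaggctttgatgaacTAGgtgga
PHKB upstream acceptor (chr16:47463857-47463886, plus strand): attgcttctaacctttactaaaCAGtttta
PHKB downstream acceptor (chr16:47463874-47463903, plus strand): ctaaacagttttaaaattgctaTAGcttag
PICALM used its upstream AAG site in 81%, 77% and 78% of transcripts in the S34F libraries and 64%, 57% and 56% in the WT libraries (19.7 points, limma adjusted p 0.056; 20 points with sgGPATCH8, limma adjusted p 0.031). PHKB used its upstream CAG site in 49%, 56% and 57% in the S34F libraries and 20%, 36% and 31% in the WT libraries (25 points, limma adjusted p 0.056; 25.7 points with sgGPATCH8, limma adjusted p 0.033). SART3, a factor that recycles spliceosomal snRNPs, had T upstream and C 54 nt downstream, and used the upstream site in 6%, 2% and 3% of transcripts in the S34F libraries and 17%, 14% and 14% in the WT libraries (limma adjusted p 0.055). The groups did not overlap in any of these 3 genes, as a choice by low p would favour. PHKB and SART3 were picked after their values were seen.

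Of the genes that published work names as S34F targets, 31 had 221 tested events, and 1 event, that of CTNNB1, passed. By the 10-point rule 15 of the 221 were higher and 22 lower, in 21 genes (16.7%, against 7.81% of all events), and 24.4% had an unadjusted p under 0.05, against 13.4% of all events. The list was made with earlier results of these data known. The event shown for a gene is the one with its lowest p, and it was not matched to the event described in published work. H2AFY, the gene of the histone variant macroH2A1, had usage at an alternative 5' splice site of 32%, 38% and 65% in the S34F libraries and 79%, 90% and 93% in the WT libraries (−42.3 points, log2 ratio −3.12 ± 0.48 SE, limma adjusted p 0.067). S34F replicate 3 lay between the other S34F libraries and the WT libraries. The 2 sites of this event lie 4 nt apart. With sgGPATCH8 its usage was 7%, 25% and 16% in the S34F libraries and 26%, 71% and 54% in the WT libraries (limma adjusted p 0.055). STRAP, a WD-repeat gene, had 80%, 92% and 91% inclusion in the S34F libraries and 93%, 97% and 98% in the WT libraries, so the groups did not overlap although each pair differed by 13 points or less (limma adjusted p 0.056). CASP8, an initiator caspase, had 35%, 37% and 35% usage of a 5' splice site in the S34F libraries and 21%, 18% and 19% in the WT libraries (limma adjusted p 0.06). BCOR, a transcriptional corepressor, used an upstream 3' splice site in 22%, 21% and 20% of transcripts in the S34F libraries and 40%, 36% and 39% in the WT libraries (limma adjusted p 0.067). IRAK4, a kinase of Toll-like receptor signalling, had 80%, 65% and 68% inclusion of an exon in the S34F libraries and 61%, 46% and 46% in the WT libraries (limma adjusted p 0.092). GNAS, a G protein subunit, had 64%, 65% and 71% in the S34F libraries and 51% in each WT library (limma adjusted p 0.095), and an exon of the CEP164 centriole gene 61%, 58% and 59% in the S34F libraries and 85%, 80% and 76% in the WT libraries (limma adjusted p 0.067). GNAS and CEP164 also differed with SRSF2 P95H, by 16.7 and −18.0 points, and IRAK4 by −17.7 points, opposite to S34F. In FMR1, TET2, ATG7 and PHF6 even the event with the lowest p differed by 5.3 points or less, and its groups overlapped. CHCHD7, a mitochondrial protein gene, had 13%, 14% and 20% upstream usage in the S34F libraries and 25%, 45% and 44% in the WT libraries (limma adjusted p 0.071). The differences were −19.3 points in DNMT3B, −16.0 in KDM6A, −14.0 in EHMT1 and 12.7 in MED24, none of which passed (limma adjusted p 0.068 to 0.16), and the groups overlapped in DNMT3B and MED24. At the lowest-p event of the other genes of the list the difference lay between −16.0 and 10.3 points and did not pass.

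None of the other 7 gene lists had a called event with sgRenilla. Genes of acceptor recognition and the U2 snRNP (20 genes, 102 events) had 5 events higher and 1 lower by the 10-point rule, or 5.88%. LUC7L2, a U1 snRNP protein, had 44%, 68% and 57% upstream usage at acceptors 3 nt apart in the S34F libraries and 37%, 48% and 36% in the WT libraries (limma adjusted p 0.19). Its groups overlapped, and its change with sgGPATCH8 was 1.7 points. SF3B1, the U2 snRNP protein next to the branch point, had 21.3 points at an event whose groups did not overlap (limma adjusted p 0.36), and −7.0 with sgGPATCH8. SR and hnRNP genes (27 genes, 174 events) had 3 higher and 5 lower, or 4.6%. An exon of PTBP1, a pyrimidine-tract binding repressor of splicing, was included in 56%, 43% and 42% in the S34F libraries and 71%, 62% and 63% in the WT libraries (limma adjusted p 0.13), and its change with sgGPATCH8 was −3.0 points. DNA damage genes (29 genes, 213 events) had 6 higher and 7 lower, or 6.1%. In CHEK1, a kinase downstream of ATR, exon inclusion was 74%, 80% and 83% in the S34F libraries and 84%, 93% and 93% in the WT libraries (limma adjusted p 0.082). Genes of myeloid malignancy (23 genes, 103 events) had 3 higher and 14 lower, or 16.5%. This list shares TET2, ASXL1, BCOR, DNMT3B, KMT2D, KDM6A and PHF6 with the published S34F targets, so its share is not independent of theirs. Also in the myeloid list, KMT2A, a histone methyltransferase, included an exon with A at −3 in 75%, 58% and 66% of transcripts in the S34F libraries. The WT libraries had 27%, 40% and 32% (limma adjusted p 0.13), and the change with sgGPATCH8 was 35.0 points (limma adjusted p 0.08). NF1, a Ras regulator, included an exon with T at −3 in 49%, 30% and 35% in the S34F libraries and 63%, 54% and 55% in the WT libraries (limma adjusted p 0.11). Its change with sgGPATCH8 was −0.7 points (limma adjusted p 0.95). Innate immune genes (19 genes, 143 events) had 8 higher and 9 lower, or 11.9%, autophagy genes (17 genes, 113 events) 3 and 10, or 11.5%, and red cell membrane and heme genes (25 genes, 135 events) 4 and 4, or 5.93%. These shares stand beside 7.81% of all events. SLC25A38, a mitochondrial carrier needed for heme synthesis, used its upstream acceptor in 40%, 11% and 27% of transcripts in the S34F libraries and 60%, 63% and 55% in the WT libraries (−33.3 points, limma adjusted p 0.098). IKBKG, the NEMO subunit of the IkappaB kinase complex, had 74%, 43% and 57% in the S34F libraries and 84%, 86% and 78% in the WT libraries (limma adjusted p 0.24). IRF3, a transcription factor of interferon responses, had 91%, 90% and 83% in the S34F libraries and 66%, 69% and 66% in the WT libraries (limma adjusted p 0.15). The groups did not overlap in these 3 genes, each shown at its lowest-p event. ATG13, of the autophagy initiation complex, had −22.3 points (limma adjusted p 0.084). In the other genes of these 7 lists with a lowest-p event of 10 points or more, the difference lay between −17.7 and 14.3 points and did not pass. Several events of a gene overlap and some genes are in more than 1 list, so the shares rest on fewer genes.

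U2AF1 itself had 5 tested events, and none passed. Its mutually exclusive exon with an acceptor at 44521542 on chromosome 21 (hg19) was set against different downstream exons. Against the exon at 44520724 it was used in 80%, 98% and 98% of transcripts in the S34F libraries. The WT libraries had 83%, 98% and 98% (−1.0 points, limma adjusted p 0.94). Here replicate 1 was low in both groups. Against the exon at 44520629 it was used in only 7%, 13% and 13% in the S34F libraries. The WT libraries had 7%, 12% and 12% there (0.7 points, limma adjusted p 0.9). Exon inclusion in the event from 44515853 to 44524425 on chromosome 21 (hg19) was 41%, 69% and 71% in the S34F libraries and 43%, 64% and 69% in the WT libraries (limma adjusted p 0.89). The groups overlapped in all 5 events. Reads of the overexpressed copy cannot be told apart from those of the cells' own gene in these values, and the mutation itself cannot be read from fractions.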

How the data were processed

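RNA of the 12 libraries of the U2AF1 panel had been sequenced by the submitters, per the labels' protocols, as paired-end reads from polyadenylated RNA in strand-specific dUTP libraries. The submitters' processing notes name the human build hg19 (GRCh37) and the tools TopHat and TopHat2 2.0.8b, Bowtie, and RSEM 1.2.4. How reads became fractions is not given in the sources used here. The deposited values are fractions with 2 decimals, the share of the isoform listed first per splicing event. No reads per value are given, so the depth is unknown and no interval from counts was computed. Of 110818 events, 110816 had coordinates. No column of per-sample values was left aside (0).

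Genes were named from exact intron lengths matched to GENCODE 29 on GRCh38, without converting coordinates, for 102185 events (92.2%). Acceptor bases came from GENCODE 29 transcripts whose exons cover the site, with 42620 of 104848 acceptors read (40.6%), of which 99.6% ended in AG. A second site of an event was placed by its distance from the annotated one, up to 300 nt.

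Events with a value in all 12 libraries, some group mean of at least 5% and some of at most 95% were analysed on the scale log2((f + 0.01) / (1 − f + 0.01)) of the fraction f. The limma fit (version 3.58.1, under R 4.3.3 with the data.table package, version 1.17.8) had group means, a trended prior variance and the replicate number as a block. P-values were adjusted over all 43468 events by the Benjamini-Hochberg method. The script was tested on simulated data. Numbers were taken as pairs because deviations of same-numbered S34F and WT libraries correlated at 0.40, 0.15 and 0.16 across events, those of replicate 1 with other numbers at −0.24 to −0.23, and those between numbers 2 and 3 at 0.13 and 0.12. The check therefore sets replicate 1 apart and hardly separates 2 from 3. Tables were summarised with Python 3.11.15, pandas 2.3.3 and scipy 1.17.1 (exact permutation tests, two-sided and unpaired).

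The text names called events with a gene name and 1 event a gene, then those with the lowest p up to 20, every called event and events of U2AF1. From the gene lists, genes were picked after their values were seen, each with its lowest-p event, and the rest are given as a range. An event and a marker gene that the lists hold are not reported here. The groups, the members and the gene lists were chosen with earlier results of these data known.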

Additional observations from a re-analysis of the deposited data

Results flagged for a closer look

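Among 89 events looked at singly (called, next lowest p, U2AF1 and the lowest p of genes in the lists), 2 had opposite directions: every S34F library lay on one side of its WT pair with sgRenilla and on the other side with sgGPATCH8. The same held for 727 of all 43468 events tested (1.67%). No event passed the limma interaction test, and 2960 had an unadjusted interaction p under 0.05. In QKI, an RNA-binding regulator of splicing, usage of the upstream of 2 acceptors 3 nt apart was 65%, 65% and 50% in the S34F sgRenilla libraries and 47%, 51% and 41% in the WT sgRenilla libraries. It was 34%, 50% and 60% in the S34F sgGPATCH8 libraries and 36%, 78% and 74% in the WT sgGPATCH8 libraries. The change with sgRenilla minus that with sgGPATCH8 was 28.3 points, and this interaction did not pass (limma adjusted p 0.75).

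In a U2AF1 exon event from 44515853 to 44521476 on chromosome 21 (hg19) usage was 80%, 70% and 71% in the S34F sgRenilla libraries and 81%, 71% and 74% in the WT sgRenilla libraries, and 80%, 76% and 78% in the S34F sgGPATCH8 libraries and 78%, 71% and 71% in the WT sgGPATCH8 libraries. The change with sgRenilla minus that with sgGPATCH8 was −6.3 points, and this interaction did not pass (limma adjusted p 0.79).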

How the results depend on the processing

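The 15 calls with sgRenilla were 150 with no limit on group means, 1 with no replicate block, 0 in a fit of the 6 sgRenilla libraries alone and 0 without replicate 1. Leaving out each of the 6 libraries gave a range of 0 to 0. Calls with sgGPATCH8 were 10 without the block, against 378 with it. Calls for SRSF2 P95H were 475 without it, against 87 with it. The 0 interaction calls held in 3 alternatives. For the 20 named events, 300 alternative values kept their direction, 103 lost a call and 12 gained one. The median change by base at −3 moved most with no limit on group means, where skipped exons had −0.67 for T, 0.33 for A and −0.67 for G, and upstream sites −0.33 for T, 0.00 for A and −0.17 for G. Means in place of medians, added after the data were seen, gave −3.37 for T and 1.48 for A in exons, and −1.60 for T, −0.21 for C and −0.06 for G at upstream sites. Single pairs gave exon medians of −2.0 for T (pair 2), 1.0 for C (pair 2) and −1.0 and −1.5 for G (pairs 1 and 3). At upstream sites they gave 0.00 for A (pairs 2 and 3) and 0.00 for G (pairs 1 and 3), and 1 event per acceptor, also added later, gave −1.0 for G. The cause of these shifts was not tested. Unknown depth limits every value, and acceptors with no read base, most of them, are not described by base.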
